A study of Mus musculus with 2 samples.

Results

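The microRNAs described here are the mature products of the mouse miR-10 and miR-196 hairpins, which lie inside the Hox gene clusters. The members were chosen by exact name: mmu-miR-10a-5p, mmu-miR-10a-3p, mmu-miR-10b-5p, mmu-miR-10b-3p, mmu-miR-196a-5p and mmu-miR-196b-5p. Small RNA was sequenced from the liver of wild-type female C57BL/6 mice aged 8 to 10 weeks that had an ethanol or a control diet, to profile small RNAs in a model of alcohol-induced liver injury and steatosis. All mice took a control Lieber-DeCarli liquid diet for 5 days. The ethanol-fed group (labelled Et-OH) then drank this diet with 5% ethanol by volume for 10 days, and on day 16 received 1 gavage of ethanol at 6 g per kg body weight, while the pair-fed group (labelled Control) took an isocaloric control diet and a gavage of isocaloric dextrin-maltose. Livers were taken 9 h after the gavage. The design text gives 16 days of ethanol feeding, which counts the days differently from the protocol.

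There were 2 tables, called experiment 1 and experiment 2 here, each with 1 pair-fed and 1 ethanol-fed library, although the labels describe 1 sample per condition. No condition therefore had a replicate within a table, the tables were normalized separately, and each difference given below is between 2 libraries, with no test. The sources used here do not say how many mice went into a library. Experiment 1 listed 484 microRNAs with 4 of the 6 members among them, and experiment 2 listed 1915 with all 6. mmu-miR-10b-3p and mmu-miR-196a-5p were not analysed here in experiment 1.

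Hox genes set the position of body segments and organs along the head-to-tail axis, and their order on the chromosome follows the order in which they act. The microRNAs between them are known to pair with the messenger RNAs of Hox genes: miR-10 has sites in Hox messages, and miR-196 directs the cleavage of Hoxb8. In adult tissues miR-10 is known from visceral organs and endothelium, and miR-196 mainly from posterior parts of the body. A microRNA hairpin is cut into a 5p and a 3p strand, of which 1 is usually kept as the guide and the other, the passenger, is mostly lost. Bases 2 to 8 of the kept strand, the seed, lead the pairing with targets.

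The 6 mature sequences are shown because they decide which members can be told apart by sequencing. They came from RefSeq (GRCm38.p6), run from 5′ to 3′, and have the seed in capitals.
mmu-miR-10a-5p: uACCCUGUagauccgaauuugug
mmu-miR-10b-5p: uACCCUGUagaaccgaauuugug
mmu-miR-10a-3p: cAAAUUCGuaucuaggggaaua
mmu-miR-10b-3p: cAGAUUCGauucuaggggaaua
mmu-miR-196a-5p: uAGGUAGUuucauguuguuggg
mmu-miR-196b-5p: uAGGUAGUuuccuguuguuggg

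The guides of miR-10a and miR-10b shared the seed ACCCUGU and were identical at 22 of 23 bases. The difference was U12A, counted from the 5′ end with the miR-10a base first. The passengers were less alike, with 19 of 22 identical bases and the differences A3G, U9A and A10U, the first of which lies in the seed. mmu-miR-196a-5p and mmu-miR-196b-5p shared the seed AGGUAGU and differed only by A12C, with 21 of 22 identical bases. Of the 1915 names in experiment 2, 1623 had a sequence in RefSeq, and no other microRNA among them carried a seed of a member. A read with an error at base 12 could be counted for the other member of a pair, and the number of mismatches the authors allowed is not given in the sources used here.

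The hairpins of miR-10a and miR-10b are shown to place the arms, which are in capitals, with coordinates on GRCm38.p6. Mir10a is at chr11:96317165-96317274 on the plus strand, is 110 bases long, and has the 5p arm at bases 22 to 44 and the 3p arm at bases 63 to 84. Mir10b is at chr2:74726070-74726137 on the plus strand, is 68 bases long, and has the 5p arm at bases 5 to 27 and the 3p arm at bases 45 to 66.
Mir10a: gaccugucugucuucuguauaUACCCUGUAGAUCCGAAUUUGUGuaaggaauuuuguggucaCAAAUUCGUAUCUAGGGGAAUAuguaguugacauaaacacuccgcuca
Mir10b: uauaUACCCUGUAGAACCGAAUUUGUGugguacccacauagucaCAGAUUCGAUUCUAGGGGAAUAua
The loop between the arms was 18 bases in Mir10a and 17 in Mir10b.

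In the GENCODE vM21 gene models, Mir10a lay between genes, 992 bp upstream of Hoxb4 and 11043 bp past the end of Hoxb5, on the same strand. Mir10b was in an intron of 2 of the 3 transcripts of Hoxd4 and of 1 of the 6 transcripts of Hoxd3. mmu-miR-196a-5p has 2 hairpins, so that its reads could not be assigned to either. Mir196a-1 (chr11:96265164-96265265, plus strand) lay between genes, 6191 bp upstream of Hoxb9, in the same cluster as Mir10a. Mir196a-2 (chr15:102973350-102973434, plus strand) was in an intron of 1 of 2 transcripts of Hoxc5, 1456 bp past Hoxc10. Mir196b (chr6:52230081-52230165, minus strand) overlapped an exon in 2 and an intron in 1 of the 5 transcripts of Hoxa9, 1031 bp past Hoxa10. The members thus came from all 4 Hox clusters, miR-10 from Hoxb and Hoxd and miR-196 from Hoxa, Hoxb and Hoxc.

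**Figure D1:**
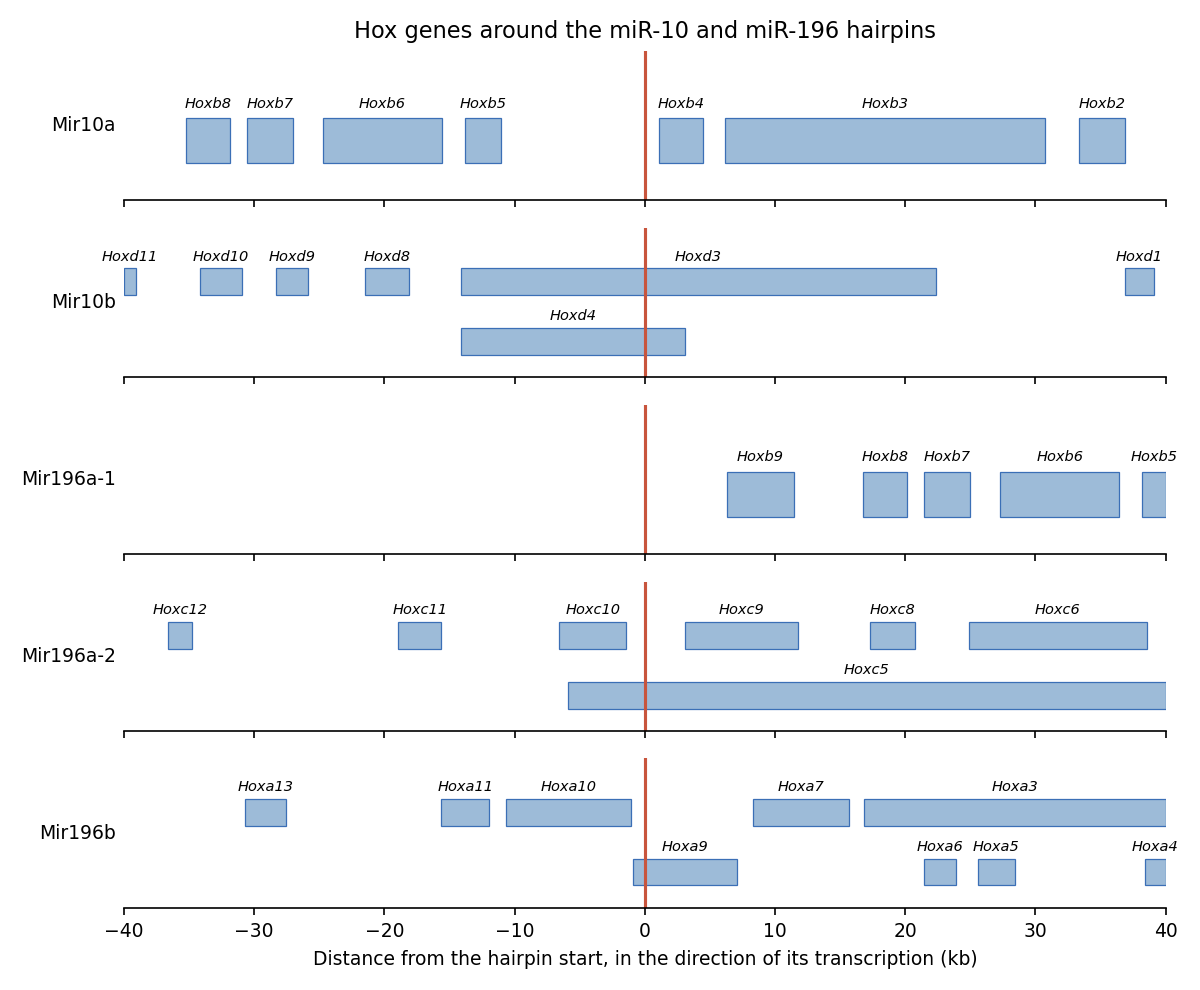
Hox genes within 40 kb of each of the 5 hairpins, drawn to scale in the direction of the hairpin's transcription, with distance from the hairpin start in kb on the x axis. Blue boxes are whole gene models, the red line is the hairpin, and genes are cut at the panel edges. Mir10a and Mir196a-1 fell between gene models, and Mir10b, Mir196a-2 and Mir196b fell inside them.

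Experiment 1 held raw read counts with 4170601 pair-fed and 4311802 ethanol-fed reads on microRNAs. They were scaled here to RPM, that is, reads per 1000000 reads on microRNAs. Experiment 2 was deposited as RPM. Its low values were multiples of the RPM of 1 read, which was 0.0925 for pair-fed and 0.0924 for ethanol-fed liver. This held within 0.1 step for 98.0% of 296 and 97.3% of 291 values up to 60 RPM, which puts the libraries at about 10812946 and 10820862 reads. Read numbers of experiment 2 given below are estimates from that step. Its lowest listed value was 0.92 RPM, or 10 reads, so a 0 there means fewer than 10 reads, and the upper limit that 3 counts give was used for experiment 1 alone. Intervals cover counting error only. They treat reads as independent molecules, which reads are not, so they may be too narrow.

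Both tables carried the hepatocyte microRNAs, but in unequal amounts. miR-192-5p was the most abundant microRNA of experiment 1, with 38.8% of pair-fed and 37.3% of ethanol-fed reads. miR-122-5p, the dominant microRNA of hepatocytes, took only 0.297% and 0.221% of reads in experiment 1 and 18.3% and 15.7% in experiment 2. Levels are therefore described within each table first.

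The guide strand of miR-10a was the member with the highest level in all 4 libraries. In experiment 1, mmu-miR-10a-5p had 400182 pair-fed and 354582 ethanol-fed reads. These were 95953 RPM and 82235 RPM, or 9.60% and 8.22% of all microRNA reads, and it ranked 4 in both libraries. In the pair-fed library it stood directly below miR-143-3p at 96276 RPM and above miR-148a-3p at 70319 RPM. In experiment 2, mmu-miR-10a-5p stood at 6979 RPM with the control diet and 7396 RPM with ethanol, about 75468 and 80034 reads. It took 0.698% and 0.740% of reads and ranked 23 and 22, with miR-99a-5p at 7219 RPM above it and miR-22-3p at 5513 RPM below it in the pair-fed library. The guide was thus among the abundant liver microRNAs in both tables, at a higher level in experiment 1.

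The guide strand of miR-10b followed at a lower level. In experiment 1, mmu-miR-10b-5p had 35652 pair-fed and 32052 ethanol-fed reads, which were 8548 and 7434 RPM, and it ranked 15 in both. Its pair-fed neighbours were miR-191-5p at 9387 RPM and miR-99b-5p at 8424 RPM. In experiment 2, mmu-miR-10b-5p stood at 158.79 RPM with the control diet and 145.00 RPM with ethanol, about 1717 and 1569 reads, and ranked 109 and 108. The pair-fed neighbours there were miR-28a-3p at 160 RPM and miR-140-5p at 143.9 RPM. The rank of miR-10b was thus lower in experiment 2, where 438 and 433 microRNAs were above 0, than in experiment 1, where 395 and 436 were.

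The passenger strand of miR-10a was low in experiment 1 and moderate in experiment 2. In experiment 1 mmu-miR-10a-3p had 4 pair-fed and 9 ethanol-fed reads, or 0.959 and 2.09 RPM. In experiment 2 it had 42.45 and 43.71 RPM, about 459 and 473 reads, and ranked 157 and 153. The passenger strand of miR-10b, mmu-miR-10b-3p, was listed at 0 in both libraries of experiment 2.

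The miR-196 members were at or near 0. mmu-miR-196b-5p had 6 reads in the pair-fed library of experiment 1, or 1.44 RPM with a Wilson 95% interval of 0.659 to 3.14 RPM. It had 0 reads in the ethanol-fed library, where 0 reads allow up to 0.696 RPM. In experiment 2 mmu-miR-196b-5p and mmu-miR-196a-5p were both listed at 0 in both libraries, that is, below 10 reads each. Of the members with a row, 4 of 4 in experiment 1 and 3 of 6 in experiment 2 were thus above 0 in at least 1 library. Over all microRNAs these counts were 484 of 484 and 469 of 1915. Every name listed in experiment 1 had reads, so the count there could not differ for the members.

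**Figure D2:**
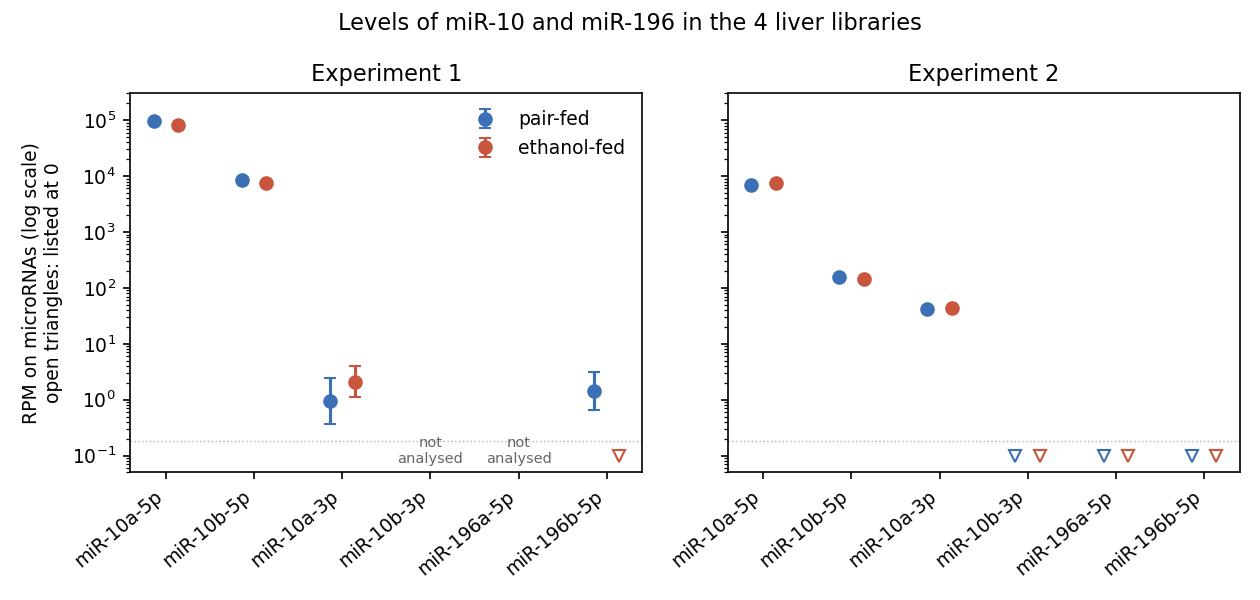
Level of each member in RPM on a log axis, in the pair-fed (blue) and ethanol-fed (red) library of experiment 1 (left) and experiment 2 (right). Bars are Wilson 95% intervals of counting error, smaller than the points for miR-10a-5p and miR-10b-5p, and open triangles mark values listed at 0. The order miR-10a-5p, miR-10b-5p, miR-10a-3p held in each library, and miR-10a-5p ran from 6979 to 95953 RPM.

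The ethanol-fed libraries were compared with the pair-fed libraries as the ratio of RPM, on the log2 scale after adding the RPM of 1 read to each value. microRNAs with at least 10 reads in both libraries together were compared, and a ratio of at least 2-fold was counted as higher or lower. Among the 302 microRNAs compared in experiment 1, 38 (12.6%) were higher and 39 (12.9%) were lower in the ethanol-fed library. Among the 469 compared in experiment 2, 50 (10.7%) were higher and 71 (15.1%) were lower. Of the members, 3 could be compared in each experiment (mmu-miR-10a-5p, mmu-miR-10b-5p and mmu-miR-10a-3p), and 0 of 3 were higher and 0 of 3 lower in either. Their median log2 ratio was -0.20 in experiment 1 and 0.042 in experiment 2, against -0.013 and 0.0026 for all microRNAs compared. With only 3 members compared, a count of 0 is not set apart from these backgrounds.

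The miR-10a guide differed little between the diets, and not in the same direction in both tables. In experiment 1, where it had 95953 RPM pair-fed and 82235 RPM ethanol-fed, it was 1.17-fold lower in the ethanol-fed library, a ratio of 0.857 with a 95% counting interval of 0.853 to 0.861 and a log2 ratio of -0.22. In experiment 2, from 6979 to 7396 RPM, the ratio was 1.06, with an interval of 1.05 to 1.07 and a log2 ratio of 0.084. These intervals follow from the read numbers and leave out the spread between mice, which a single library per diet does not show. A bulk liver library also cannot tell fewer cells of a type from less RNA per cell. The difference between the 2 experiments was not tested.

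The miR-10b guide was lower in the ethanol-fed library of both experiments, by less than 2-fold. In experiment 1 the ratio was 0.870 with an interval of 0.857 to 0.883 and a log2 ratio of -0.20. In experiment 2 it was 0.913 with an interval of 0.852 to 0.978 and a log2 ratio of -0.13. Both guides thus had nearly the same ratio in experiment 1, and their counting intervals overlapped. Together, the miR-10a and miR-10b guides took 10.5% of pair-fed and 8.97% of ethanol-fed reads in experiment 1, and 0.714% and 0.754% in experiment 2.

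For the strands with few reads the depth of experiment 1 set wide limits. mmu-miR-10a-3p went from 4 to 9 reads, a ratio of 2.18 with an interval of 0.607 to 9.67, so that a difference was not detectable at this depth, and its log2 ratio with the added read was 0.95, just short of 2-fold. In experiment 2, with 459 and 473 estimated reads, the ratio was 1.03, with an interval of 0.904 to 1.17. For mmu-miR-196b-5p in experiment 1 the exact counting interval for 6 reads against 0 let the ratio of ethanol-fed to pair-fed RPM be as high as 0.821. It was under the minimum of 10 reads and was not counted.

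**Figure D3:**
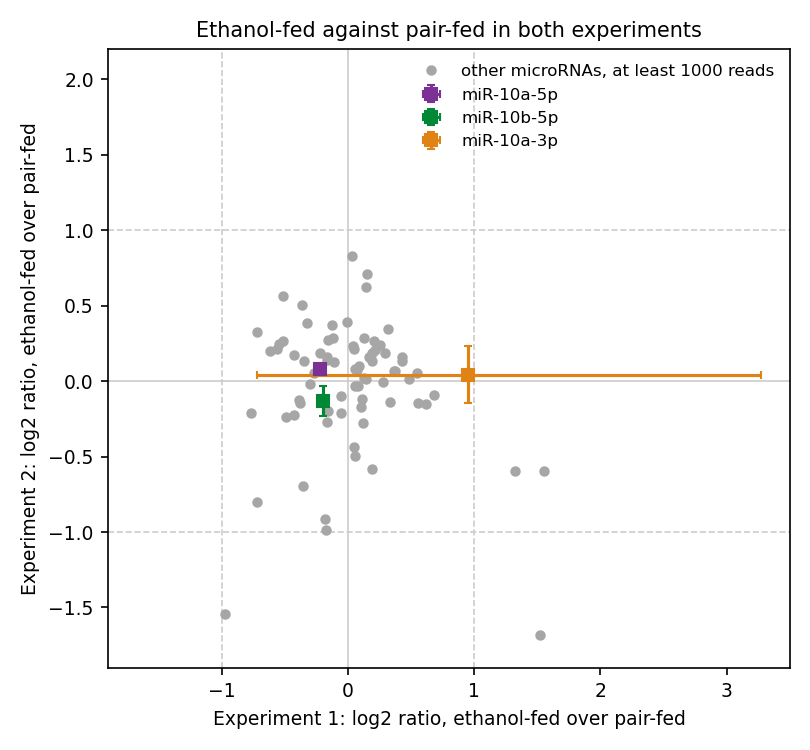
RPM with ethanol over RPM with the control diet, as a log2 ratio, in experiment 1 (x axis) and experiment 2 (y axis) for the 3 members compared and for other microRNAs that had 1000 or more reads in each table. Bars are 95% counting intervals and dashed lines mark 2-fold. miR-10a-5p and miR-10b-5p lie near the centre, at -0.22 and -0.20 on the x axis, and the interval of miR-10a-3p in experiment 1 spans -0.72 to 3.27.

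The differences of both guides lay within the range of the other well-covered microRNAs, near the middle in size in experiment 1 and among the smaller ones in experiment 2. At least 1000 reads over both libraries of each table were found for 77 microRNAs, and their log2 ratios ran from -0.98 to 1.55 in experiment 1 and from -1.68 to 0.83 in experiment 2. In experiment 1, 38 of the 77 had a smaller absolute log2 ratio than miR-10a-5p and 35 a smaller one than miR-10b-5p. In experiment 2 these numbers were 13 and 20. The microRNAs whose pair of log2 ratios lay closest to that of miR-10a-5p (-0.22 in experiment 1 and 0.084 in experiment 2) were miR-378c (-0.27 and 0.055), miR-30c-5p (-0.16 and 0.14) and let-7a-5p (-0.17 and 0.16), at distances of 0.056, 0.080 and 0.095. Closest to miR-10b-5p (-0.20 and -0.13) were miR-103-3p (-0.16 and -0.20), miR-140-3p (-0.17 and -0.27) and miR-192-5p (-0.057 and -0.097), at 0.080, 0.14 and 0.15. The likeness rests on 2 ratios, and in each ratio all microRNAs share the same 2 libraries.

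The share of miR-10a among the guides of both hairpins was high in all 4 libraries and differed more between the tables than between the diets. In experiment 1, miR-10a took 91.8% of the pair-fed and 91.7% of the ethanol-fed reads of both guides, with Wilson 95% intervals of 91.7% to 91.9% and 91.6% to 91.8%. In experiment 2 the shares were 97.8%, with an interval of 97.7% to 97.9%, and 98.1%, with an interval of 98.0% to 98.2%. Put the other way, miR-10b took 8.18% and 8.29% of guide reads in experiment 1 and 2.22% and 1.92% in experiment 2. The share of miR-10b was thus 3.68 times as large in experiment 1 as in experiment 2 in the pair-fed and 4.31 times in the ethanol-fed libraries. Since the guides differ only by U12A, how the counting split their reads could change this share, and its part in the difference was not tested.

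The balance of the arms of miR-10a differed far more between the tables. In experiment 1 the 3p strand made up 0.00100% of miR-10a reads in the pair-fed library (Wilson 95% interval 0.000389% to 0.00257%) and 0.00254% in the ethanol-fed library (0.00134% to 0.00482%). In experiment 2 it made up 0.605% (0.552% to 0.662%) and 0.588% (0.537% to 0.643%). The share was thus 605 times as large in experiment 2 as in experiment 1 for the pair-fed and 231 times for the ethanol-fed libraries. In numbers of 5p reads for each 3p read, this is 100046 and 39398 in experiment 1 against 164 and 169 in experiment 2. Within each table the intervals of the pair-fed and the ethanol-fed library overlapped. For miR-10b in experiment 2, the 3p strand was listed at 0 beside 1717 and 1569 guide reads, and the 9 reads that could go unlisted would be at most 0.521% and 0.570% of its reads, near the share that the 3p strand had in miR-10a.

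This comparison of arms was chosen after the values of miR-10a were seen, and the other hairpins are given for scale. In 39 hairpins both strands were listed in both tables and had together at least 1000 reads in each library. The strand with fewer reads took a median of 0.214% of pair-fed and 0.142% of ethanol-fed reads in experiment 1, and of 0.327% and 0.501% in experiment 2. miR-10a ranked 6 and 5 from the lowest share in experiment 1, and 23 and 22 from the lowest, close to the middle, in experiment 2. Over the 33 hairpins that gave a ratio for the pair-fed libraries, the lesser strand's share in experiment 2 over that in experiment 1 had a median of 0.974, and miR-10a at 605 was the highest, followed by miR-143 at 455. Over 35 hairpins in the ethanol-fed libraries the median was 1.44, and miR-10a at 231 ranked 3, behind miR-143 and miR-22. There were 4 hairpins above 100 in each, miR-10a among them, and they were not all the same hairpins in both. The change in miR-10a was thus shared by few other hairpins and not by most. For these ratios the lesser strand of a hairpin was fixed over all 4 libraries. The medians of shares used the strand with fewer reads in each library by itself.

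**Figure D4:**
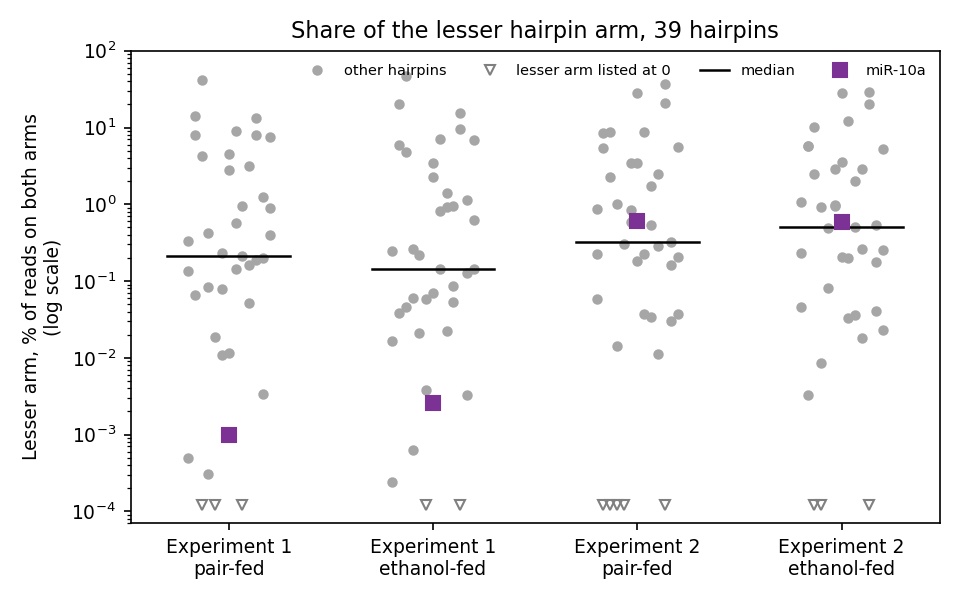
Share of the lesser strand in the reads of both strands of a hairpin, in percent on a log axis, for 39 hairpins in each of the 4 libraries. Grey points are the other hairpins, triangles those with the lesser strand listed at 0, bars the medians and purple squares miR-10a. miR-10a sits near the bottom of experiment 1 at 0.00100% and 0.00254% and near the median of experiment 2 at 0.605% and 0.588%.

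The level of both guides also differed between the tables, which were normalized separately and had different dominant microRNAs, so the following values are set side by side only to describe the tables. A minimum of 100 reads in every library left 113 microRNAs, for which RPM in experiment 1 over RPM in experiment 2 had a median of 0.622 for the pair-fed and 0.734 for the ethanol-fed libraries. For miR-10a-5p this ratio was 13.7 and 11.1, ranking 6 and 9 from the highest. For miR-10b-5p it was 53.8 and 51.3, ranking 2 and 4. The order of the miR-10 guides was the same in both tables, but their levels were not. Handling of the tables and the livers behind them cannot be told apart.

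The closest relatives of the miR-10 guides by sequence are miR-99a, miR-99b and miR-100, which share a stretch of miR-10a but not its seed and are not in the Hox clusters. They are shown to set their seed, in capitals, beside that of miR-10.
mmu-miR-99a-5p: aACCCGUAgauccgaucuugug
mmu-miR-99b-5p: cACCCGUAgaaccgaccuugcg
mmu-miR-100-5p: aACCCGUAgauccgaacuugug
The longest run in common with mmu-miR-10a-5p was guagauccgaa, of 11 bases, in mmu-miR-100-5p, at bases 7 to 17 of miR-10a and 6 to 16 of miR-100. The run with mmu-miR-10a-5p was 10 bases in mmu-miR-99a-5p and 5 in mmu-miR-99b-5p. Runs in common with mmu-miR-10b-5p were not searched, so these lengths do not order the relatives by likeness to miR-10b.

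None of the 3 relatives reached 2-fold between the diets in either table (backgrounds as above). mmu-miR-100-5p went from 1665 RPM pair-fed to 1011 RPM ethanol-fed in experiment 1, a log2 ratio of -0.72, and from 1614 to 2021 RPM in experiment 2, a log2 ratio of 0.32. mmu-miR-99b-5p went from 8424 to 5889 RPM in experiment 1 and from 569 to 841 RPM in experiment 2. mmu-miR-99a-5p went from 882 to 693 RPM and from 7219 to 7935 RPM. All 3 were lower with ethanol in experiment 1, with a median log2 ratio of -0.52, and higher in experiment 2, with a median of 0.32, so that their directions differed between the tables as that of miR-10a-5p did. Between the tables they did not move together: in the pair-fed libraries RPM in experiment 1 over RPM in experiment 2 was 14.8 for miR-99b-5p, near the 13.7 of miR-10a-5p, 1.03 for miR-100-5p and 0.122 for miR-99a-5p.

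mmu-miR-196a-5p has a stretch of 7 bases, agguagu, in common with the abundant let-7a (mmu-let-7a-5p: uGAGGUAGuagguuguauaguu), at bases 2 to 8 of miR-196a and 3 to 9 of let-7a. The seeds are therefore offset by 1 base and are not the same. The other mature strands of the Hox clusters are miR-615-3p and miR-615-5p, which lie in the Hoxc cluster, and the 3p strands of the miR-196 hairpins. These 5 names were not analysed here in experiment 1. In experiment 2, miR-615-3p alone was above 0, with a pair-fed value of 0 and an ethanol-fed value of 1.2 RPM, or 13 reads, and 4 of 5 were listed at 0 in both. It counted as higher with the added read, beside a background of 10.7%, and no fold is given against a value listed at 0. With that 0 set to the 10 reads of the smallest listed value, its log2 ratio was 0.35 and it no longer counted as higher.

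Markers of other cells moved between the libraries as well. The counts at 2-fold given here stand beside backgrounds of 12.6% higher and 12.9% lower in experiment 1, and 10.7% and 15.1% in experiment 2. In experiment 1 the 4 red cell microRNAs summed to 11559 RPM pair-fed and 33915 RPM ethanol-fed, with 3 of 4 higher, and in experiment 2 to 1826 and 1152 RPM. The 4 hepatocyte microRNAs summed to 392402 and 376642 RPM in experiment 1 and to 324136 and 291554 RPM in experiment 2. Of these sums, miR-192-5p alone made up 388161 and 373090 RPM in experiment 1. miR-122-5p had 2971 and 2210 RPM in experiment 1 and 182938 and 156660 RPM in experiment 2. In each experiment 2 of the 4 had log2 ratios above 0 and 2 below 0, and 0 reached 2-fold. The 2 endothelial microRNAs summed to 3854 and 5142 RPM and to 22335 and 26332 RPM. The 5 mesenchymal microRNAs, which include the abundance neighbour miR-143-3p, summed to 96550 and 96122 RPM and to 19700 and 24782 RPM. miR-143-3p alone made up 96276 and 95735 RPM in experiment 1 and 15722 and 20681 RPM in experiment 2. In experiment 1, 4 of 5 had log2 ratios above 0, and 2 of 5 were higher at 2-fold. These were miR-145a-5p, with 119 and 256 reads, and miR-214-3p, with 3 and 20. In experiment 2, 2 of 5 had log2 ratios above 0 and 3 below 0, and 0 reached 2-fold. Of the 4 pancreatic microRNAs, 2 had a row in experiment 1 and summed to 85.1 and 48.5 RPM, with miR-216b-5p at 0 in the pair-fed library. In experiment 2 all 4 summed to 5.92 and 113 RPM, with 4 of 4 higher and miR-216a-5p and miR-216b-5p listed at 0 in the pair-fed library. The 5 white cell microRNAs summed to 404 and 336 RPM in experiment 1, with miR-155-5p at 0 in the pair-fed library, and to 886 and 473 RPM in experiment 2, with 0 of the 4 and 0 of the 5 compared at 2-fold. The epithelial sums were 61.4 and 61.9 RPM, with miR-200c-3p at 0 in the pair-fed library of experiment 1, and 519 and 887 RPM. Those of striated muscle, with 2 of 4 markers listed above 0 in each table, were 0.719 and 4.64 RPM and 71.95 and 115 RPM. The 2 markers were not the same: miR-1a-3p, with 69.92 and 111 RPM in experiment 2, was not analysed here in experiment 1. The muscle sums of the 2 experiments are therefore not alike in content. The 1 striated muscle marker compared in experiment 1, miR-133a-3p, was higher, with 2 pair-fed and 18 ethanol-fed reads. In experiment 2, 0 of 2 compared were higher. The part of these markers in the miR-10 values was not tested.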

How the data were processed

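Liver RNA was extracted with TRIzol and the small RNA fraction was cut from a polyacrylamide gel, amplified by RT-PCR and sequenced on an Illumina HiSeq system, whereas the labels name a TruSeq RNA kit. The aligner, annotation, mismatch rule and filters are not given in the sources used here. The submitters' processing notes name the build mm8. The authors deposited raw read counts per microRNA for experiment 1. For experiment 2 the authors deposited RPM values, a unit read here from the column sums of 999899 and 999896, and values under 0.92 RPM were 0. The tables also held the authors' log2 fold changes and P-values, which were not used. No column of per-sample values lacked a condition.

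Counts of experiment 1 were scaled to reads per 1000000 reads on microRNAs, and reads of experiment 2 were estimated as RPM over the RPM of 1 read. Log2 ratios used RPM plus the RPM of 1 read, over microRNAs with at least 10 reads in both libraries together. With 1 library per condition no test was made. Intervals are exact conditional binomial (Clopper-Pearson) for ratios and Wilson for shares and levels, both at 95%. The calls and intervals were run on simulated independent counts with known folds. That simulation had neither the dependence between reads nor the missing low values of experiment 2, so it does not cover them. The members, relatives and marker lists were chosen with earlier results of these data known, and the comparisons of arms and of levels between tables after the values were seen. Besides these, the 3 microRNAs nearest in both log2 ratios to each guide and the neighbours in pair-fed abundance were named. Other scalings, pseudocounts, minimums and the treatment of zeros were tried as alternatives.

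Sequences were matched by name to RefSeq (GRCm38.p6) and gene models to GENCODE vM21 (GRCm38). The deposited tables give names without coordinates, so these positions are not on the authors' build. Computation used scipy 1.17.1 and pandas 2.3.3 under Python 3.11.15, with numpy 2.4.6, and figures matplotlib 3.10.9.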

Additional observations from a re-analysis of the deposited data

Results flagged for a closer look

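The ethanol-fed library was below the pair-fed library for mmu-miR-10a-5p in experiment 1, with a log2 ratio of -0.22, and above it in experiment 2, with a log2 ratio of 0.084. The 2 experiments thus had opposite directions for the most abundant member, and the difference was not tested, since each rests on 1 library per diet.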

How the results depend on the processing

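No paired analysis was made because the labels give 1 sample per diet with no replicate number, so that the 2 tables, normalized separately, were not treated as replicates of a diet. For the same reason no replicate was left out. The paper's legend on the tRNA fragments speaks of 2 independent experiments, and does not say whether the 2 tables are these. Over 35 recomputed log2 ratios of the members, 0 changed sign. Of these, 29 moved by no more than the distance from the middle of their counting interval to its end. The 6 that moved further were both guides in experiment 1 under each other scaling. The interval of mmu-miR-196b-5p had no lower end, so its ratios could not count as moved, although they ran from -5.98 to -0.73. Replacing zeros in experiment 2 could not move the members compared, which had no zeros. The ratio of mmu-miR-10a-5p ran from -0.26 to -0.17 in experiment 1 and from 0.071 to 0.088 in experiment 2, and that of mmu-miR-10b-5p from -0.24 to -0.15 and from -0.14 to -0.13. In experiment 1, mmu-miR-10a-3p, with 4 and 9 reads, took the number of members higher from 0 to 1 with unscaled reads and to 1 with a pseudocount of 0.1 read, and with no minimum mmu-miR-196b-5p took the number lower from 0 to 1. The log2 ratio of mmu-miR-10a-3p ran from 0.39 to 1.10. Over all microRNAs of experiment 1, the 38 higher and 39 lower became 23 and 17 with a pseudocount of 10 reads, 99 and 102 with no minimum, 10 and 9 with a minimum of 100 reads and 3 and 2 with a minimum of 1000 reads. In experiment 2, the 50 higher and 71 lower became 23 and 49 where a 0 was replaced by the smallest value the library lists. They became 12 and 24 with a minimum of 100 reads and 3 and 4 with a minimum of 1000 reads. The cause of these changes was not tested. A minimum of 100 reads left 158 microRNAs in experiment 1 and 298 in experiment 2, and a minimum of 1000 reads left 82 and 151. In experiment 2 the number of members at 2-fold stayed at 0 in these settings, with 2 rather than 3 members compared at the minimum of 1000 reads. Leaving the most abundant microRNA out of the total put the level of mmu-miR-10a-5p at 156827 and 131175 RPM in experiment 1 and at 8570 and 9108 RPM in experiment 2. Another scaling shifted the median log2 ratio of all microRNAs by at most 0.048. Unscaled reads were not run for experiment 2, which holds RPM.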
